A study of Homo sapiens with 6 samples.

Results

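The STEAP (six-transmembrane epithelial antigen of the prostate) metalloreductase family comprises STEAP1, STEAP1B, STEAP2, STEAP3 and STEAP4, which are 5 of the 26255 genes with values in these data. Members were taken by gene symbol, and the family was chosen by the strong rise of STEAP4 FPKM between the 2 groups compared here, so the levels and changes of the members are given as a description and without p-values. RNA-seq was carried out on 22RV1 cells, a human line of castration-resistant prostate cancer (CRPC). Cells in full serum-containing medium received either the vehicle DMSO (n = 3) or 10 nM bruceantin (BCT), a quassinoid natural product, for 24 h (n = 3). The study asked how BCT changes the transcriptome of CRPC cells. A single cell line, dose and time were sampled, and nothing in the labels says that the 3 replicates were separate cultures, so p-values below measure only the spread between these samples.

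STEAP proteins span the membrane several times and carry a heme group. STEAP2, STEAP3 and STEAP4 have an N-terminal domain that takes electrons from NADPH, passes them through FAD and the heme, and reduces ferric and cupric ions so that transporters can carry them. STEAP1 and STEAP1B lack that domain. STEAP1 and STEAP2 are known as membrane proteins abundant in prostate tissue and prostate cancer, STEAP3 as the endosomal reductase of the transferrin iron cycle, and STEAP4 (also STAMP2 or TNFAIP9) as a gene that responds to inflammatory cytokines and nutrients in adipose tissue.

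Levels were FPKM (fragments mapped to a gene, divided by its transcript length and by the library's mapped total), which can be set side by side between genes. Summed over all genes they ran from 1169650 to 1572320 in DMSO and from 757534 to 799838 in BCT, and 1 short transcript, MIR6087, took 43.5 to 55.3% of the sum in DMSO and 31.7 to 32.5% in BCT. Read counts were not among the values, so depth is unknown in reads. Relative depth was taken as the most common ratio of a gene's low FPKM in DMSO replicate 1 to that in each sample. It was 0.877 to 1 in DMSO and 1.05 to 1.13 in BCT, on the assumption that this ratio comes from equal read counts. All 15 prostate epithelial markers examined had a mean of at least 1 FPKM. Of 18 markers of other cell types, 11 averaged below 0.1 FPKM, among them PTPRC of leukocytes at 0.0113 and PECAM1 of endothelium at 0.00900 in DMSO. Their summed level was 397.5 to 424.6 FPKM in DMSO and 84.6 to 94.5 in BCT, and ALB, the albumin gene, gave 387.7 to 415.5 FPKM of it in DMSO and 57.2 to 68.9 FPKM in BCT. Of the 4 above the filter, ALB was called lower and CD68, COL1A1 and ACTA2 were called higher (median over the 4 log2 fold changes 1.57), and their part in the STEAP values was not tested.

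STEAP1 was the most abundant member in every sample. Its level was 70.8, 61.8 and 67.3 FPKM in DMSO and 21.7, 18.6 and 18.8 FPKM in BCT. The BCT samples all lay below the DMSO samples. The mean went from 66.6 ± 4.56 to 19.7 ± 1.73 FPKM (SD, n = 3), 3.38-fold lower, which was a log2 fold change of -1.76 (SE 0.077). In bulk RNA, fewer cells with a transcript and less of it per cell cannot be told apart. Here and below, log2 fold changes are BCT against DMSO on the log2(FPKM + 0.1) scale, which understates the change of low genes.

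STEAP2 was the next most abundant member without treatment. Its level was 27.8, 25.6 and 26.5 FPKM in DMSO and 10.2, 6.93 and 8.40 FPKM in BCT, again without overlap. The mean fell from 26.6 ± 1.12 to 8.52 ± 1.66 FPKM, 3.13-fold lower (log2 fold change -1.65, SE 0.12). STEAP1 exceeded STEAP2 by a ratio of 2.41 to 2.55 in the DMSO samples and 2.12 to 2.68 in the BCT samples, so the ratio in BCT spanned the range seen in DMSO.

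STEAP3, the endosomal ferrireductase, was a low-level transcript in these cells and showed the deepest fall of the members. DMSO samples held 3.21, 3.68 and 3.62 FPKM and BCT samples 0.488, 0.200 and 0.245 FPKM. The mean went from 3.50 ± 0.257 to 0.311 ± 0.155 FPKM, 11.3-fold lower, with a log2 fold change of -3.19 (SE 0.25). Because all BCT values were below 1 FPKM, STEAP3 passed the filter on low values (1 FPKM or more, averaged over the 6 samples) only through DMSO.

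STEAP4 moved in the opposite direction. It was at 0.343, 0.473 and 0.321 FPKM in DMSO and at 7.55, 11.8 and 10.5 FPKM in BCT. The mean rose from 0.379 ± 0.0821 to 9.95 ± 2.19 FPKM, 26.2-fold higher, and the log2 fold change was 4.38 (SE 0.19). STEAP4 passed the filter only through BCT.

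STEAP1B, a shorter relative of STEAP1 whose function is little known, stayed close to the detection limit. Values of 0.156, 0.151 and 0.076 FPKM in DMSO stood against 0.042, 0.02 and 0.039 FPKM in BCT. Its mean over all samples, 0.0807 FPKM, was under the filter, so it was not fitted and its difference of -0.75 on the log2 scale has no standard error.

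**Figure D1:**
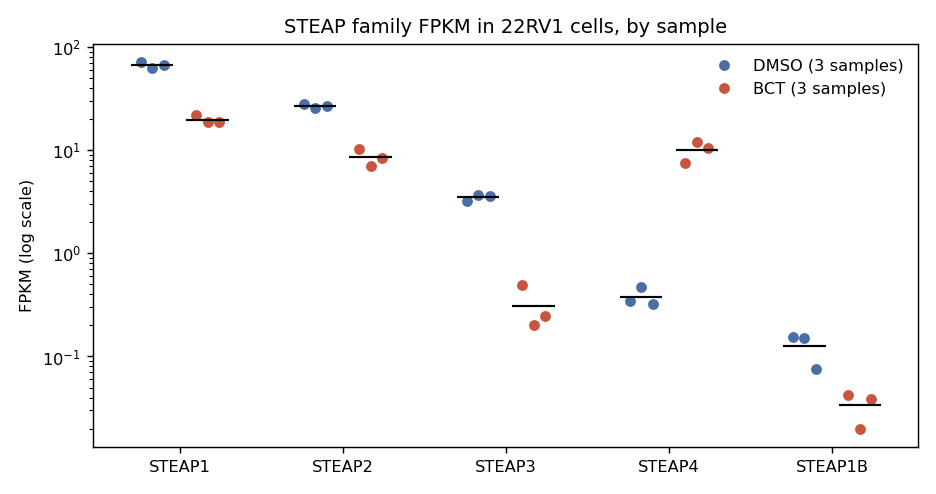
FPKM (log axis) of each STEAP member in the 3 DMSO and the 3 BCT samples, with points for samples and bars for the group means. STEAP1, STEAP2, STEAP3 and STEAP1B lie lower in all BCT samples, and STEAP4 goes from 0.321 to 0.473 FPKM in DMSO to 7.55 to 11.8 FPKM in BCT.

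Genes counted as called where a limma fit of all 12729 genes above the filter put the log2 fold change past 0.85 in either direction with a Benjamini-Hochberg adjusted p under 0.05. By that rule 31.6% of tested genes were called, 17.8% lower and 13.9% higher, and 85.3% had groups that did not overlap. Of the 5 members, 4 were tested, 3 of them were called lower and 1 was called higher, and all 5 had groups that did not overlap. These counts come from the contrast that picked the family, and nothing is read from them. In order of log2 fold change among tested genes, STEAP4 was at place 23 from the highest, STEAP3 at place 49 from the lowest, STEAP1 at place 517 and STEAP2 at place 625 from the lowest. The median over all tested genes was -0.04.

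**Figure D2:**
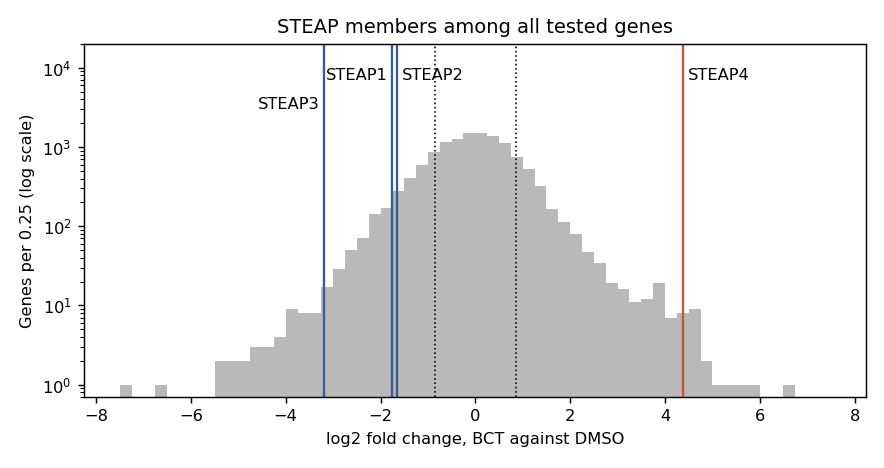
Number of tested genes (log axis) by log2 fold change, BCT against DMSO, with solid lines at the 4 tested STEAP members and dotted lines at 0.85 in either direction. STEAP1 and STEAP2 lie at -1.76 and -1.65, STEAP3 at -3.19 and STEAP4 at 4.38.

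The members differed in how tightly replicates lay together. In DMSO the coefficient of variation was 6.85% for STEAP1, 4.19% for STEAP2, 7.33% for STEAP3 and 21.7% for STEAP4. In BCT it was 8.81% for STEAP1, 19.4% for STEAP2, 49.8% for STEAP3 and 22.0% for STEAP4. BCT replicate 1 was the BCT sample nearest to DMSO for each of these 4 genes. The same library was nearest over all tested genes too, with a root mean square (RMS) log2 difference from the DMSO mean of 0.931 against 1.12 and 1.11 for replicates 2 and 3. Without it the log2 fold change was -1.83 for STEAP1, -1.79 for STEAP2, -3.48 for STEAP3 and 4.56 for STEAP4.

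The make-up of the family's RNA changed along with its amount. All members together summed to 102.4, 91.7 and 97.8 FPKM in DMSO and to 40.0, 37.5 and 37.9 FPKM in BCT, so the summed level in BCT was 39.6% of that in DMSO. STEAP1 made up 68.5% of the sum in DMSO and 51.1% in BCT. STEAP4 went from 0.393% to 26.0%, with 18.9, 31.5 and 27.6% in the 3 BCT samples. STEAP2 gave 27.4% and then 22.1%, and STEAP3 3.62% and then 0.799%.

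Split by protein domain, the 3 members with the N-terminal reductase domain summed to 30.5 ± 0.814 FPKM in DMSO and 18.8 ± 0.445 FPKM in BCT, 1.63-fold lower. That direction rests on the scale, since the sum in BCT was 61.5% of that in DMSO as deposited and 104.3% after rescaling to equal FPKM sums. Shares within the family are the same on either scale. STEAP1 and STEAP1B together, which lack the domain, went from 66.8 ± 4.56 to 19.7 ± 1.74 FPKM, 3.39-fold lower. Transcripts of the reductase members were 31.4% of the family in DMSO and 48.8% in BCT. The order of levels changed too. In DMSO it ran STEAP1, STEAP2, STEAP3, STEAP4, STEAP1B, and no neighbours in that order overlapped. In BCT STEAP1 remained on top, STEAP4 (7.55 to 11.8 FPKM) and STEAP2 (6.93 to 10.2 FPKM) overlapped and did not differ beyond their spread, and STEAP3 and STEAP1B followed.

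**Figure D3:**
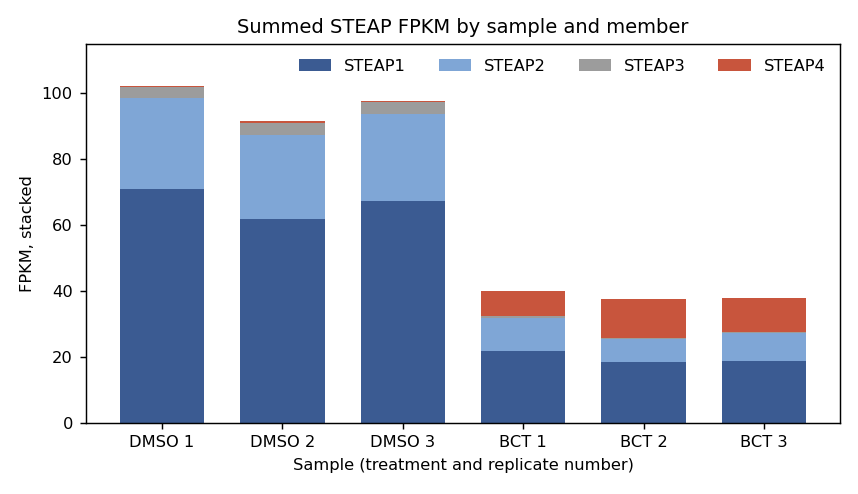
FPKM of the STEAP members stacked for each of the 3 DMSO and 3 BCT samples, with STEAP1B left out because its values are too low to see. The stack falls from 91.7 to 102.4 FPKM in DMSO to 37.5 to 40.0 FPKM in BCT while the STEAP4 layer grows to 18.9 to 31.5% of it.

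On the GENCODE annotation of GRCh37 (hg19), 4 of the 5 members lie on chromosome 7. STEAP4 is at chr7:87900207-87936209 on the minus strand, and STEAP1 at chr7:89783783-89794141 and STEAP2 at chr7:89841054-89866997 follow on the plus strand, 46.9 kb apart from each other. STEAP4 lies 1.85 Mb from STEAP1. STEAP1B is at chr7:22459063-22539807 on the minus strand, and STEAP3 is at chr2:119981410-120023228 on the plus strand. Coding sequences had 339 codons in STEAP1 and 264 in STEAP1B, against 490 in STEAP2, 498 in STEAP3 and 459 in STEAP4. The file lists STEAP1 with the span of a merged locus that also covers STEAP2-AS1 and DPY19L2P4. Which transcripts entered the STEAP1 value cannot be seen from the file, and this limit holds for its level, its share of the family sum and its ratio to STEAP2.

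Sequence is shown for the STEAP4 promoter because STEAP4 was the member that rose, and for the STEAP1 and STEAP1B promoters because they are near copies. All 3 are RefSeq windows from 250 bases before to 50 bases after the start of transcription (tables of GRCh38.p14). Each matched its own hg19 chromosome, in the orientation of the gene, at exactly 1 place. The rest of the genome was not searched. The STEAP4 window is chr7:87936160-87936459, minus strand, printed 5′ to 3′ with the 2 motif matches in capitals:
STEAP4: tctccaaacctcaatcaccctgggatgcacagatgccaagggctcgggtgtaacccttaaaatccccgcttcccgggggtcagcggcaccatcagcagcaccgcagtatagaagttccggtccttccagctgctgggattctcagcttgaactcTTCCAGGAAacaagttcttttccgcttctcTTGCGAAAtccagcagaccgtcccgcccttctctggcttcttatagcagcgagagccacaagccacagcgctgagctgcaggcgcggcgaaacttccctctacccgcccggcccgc
The matches are TTCCAGGAA, of the STAT motif TTCNNNGAA, at position -96 from the start, and TTGCGAAA, of the C/EBP motif TTGCNNAA at position -66. STAT and C/EBP proteins are transcription factors that act downstream of cytokine receptors. Of 35116 RefSeq promoters of the same length, 7.66% held the STAT letters and 10.5% the C/EBP letters on either strand. The letters searched for NF-kB (found in 5.68% of promoters), AP-1 (TGANTCA, 7.71%) and CHOP-ATF4 (TGATGNAA, 3.62%) did not occur in this window. None of the 5 motifs occurred in the windows of the other members. A match of letters is a description and not a binding site.

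The windows of STEAP1 (chr7:89783533-89783832, plus strand) and STEAP1B (chr7:22539758-22540057, minus strand) differed at 10 of 300 bases and were 96.7% identical. The bases that differ are in capitals:
STEAP1: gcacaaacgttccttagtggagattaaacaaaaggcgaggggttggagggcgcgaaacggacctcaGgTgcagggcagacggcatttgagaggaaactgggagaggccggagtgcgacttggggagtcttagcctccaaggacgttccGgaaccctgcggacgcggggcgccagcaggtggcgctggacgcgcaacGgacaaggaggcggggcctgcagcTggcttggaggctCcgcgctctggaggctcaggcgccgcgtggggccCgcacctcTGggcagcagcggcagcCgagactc
STEAP1B: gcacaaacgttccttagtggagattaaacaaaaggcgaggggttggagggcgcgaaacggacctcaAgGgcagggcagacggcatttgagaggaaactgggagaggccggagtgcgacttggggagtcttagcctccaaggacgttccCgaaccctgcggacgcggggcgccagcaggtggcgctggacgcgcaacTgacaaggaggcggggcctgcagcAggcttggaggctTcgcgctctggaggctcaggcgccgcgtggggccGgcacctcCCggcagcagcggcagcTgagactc
With these near-identical windows STEAP1 was at 66.6 FPKM and STEAP1B at 0.128 FPKM in DMSO. Transcripts of the pair shared 82 of the 1162 stretches of 100 bases in STEAP1B, or 7.06%, and 7.32% of those in STEAP1, and how far reads from STEAP1 enter the low STEAP1B value was not tested. No such stretch was shared between the other members. The library kit does not mark strand, so reads of STEAP3 and of its antisense gene STEAP3-AS1 (0.38 to 0.394 FPKM in DMSO and 0.0510 to 0.109 FPKM in BCT) cannot be told apart where they overlap. STEAP2-AS1 (chr7:89511667-89840949, minus strand) ends before STEAP2 begins, and its span covers STEAP1. The same limit therefore holds for STEAP1 wherever its transcript overlaps that of STEAP2-AS1, which was at 0 to 0.253 FPKM in all samples.

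Neighbouring genes were examined because position had no part in the choice of the family. Within 500 kb of a member, 38 other genes were listed and 17 of them were tested, of which 1 was higher and 3 were lower. Over all tested genes 13.9% were higher and 17.8% lower, and nothing is read from the neighbour counts. The gene called higher was ABCB1, which encodes the P-glycoprotein drug efflux pump and whose listed span lay near STEAP4. ABCB1 was at 0.115, 0.205 and 0.207 FPKM in DMSO and 1.96, 2.94 and 2.42 FPKM in BCT, a log2 fold change of 3.20 (SE 0.25). It passed the filter only through BCT, where it was high, so no p is given and its call is a description. ABCB1 is listed with a span shared with RUNDC3B (chr7:87133179-87461613). Its place within 500 kb of STEAP4 rests on that span, and the distance of ABCB1 itself was not determined. ADAM22, from which SRI separates STEAP4, fell by 1.58 on the log2 scale (limma, adjusted p = 2.4e-06), and SLC25A40, a mitochondrial carrier, fell by 1.02 (limma, adjusted p = 6.8e-06). SRI (sorcin), the nearest tested gene to STEAP4, was at 63.3 ± 1.54 FPKM in DMSO and 85.0 ± 2.34 FPKM in BCT, a log2 fold change of 0.42 that stayed under the threshold. DBF4 was at -0.63 and RUNDC3B at 0.65, and they were not called either. SLC25A40 and DBF4 are likewise listed with a shared span (chr7:87463814-87538856).

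Around STEAP1 and STEAP2 the 4 tested neighbours were not called. Their log2 fold changes were -0.32 for CFAP69, 0.47 for GTPBP10, 0.45 for CLDN12 and 0.32 for CDK14. Near STEAP3, DBI, which encodes the acyl-CoA binding protein, fell from 208.3 ± 13.1 to 36.0 ± 8.39 FPKM (log2 fold change -2.55, limma, adjusted p = 1.3e-06). TMEM177 was at -0.84 and C2orf76 at 0.30, neither of them called. Near STEAP1B, TOMM7 was at -0.56, CDCA7L at -0.49, RAPGEF5 at 0.21 and FAM126A at 0.15, again without a call.

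**Figure D4:**
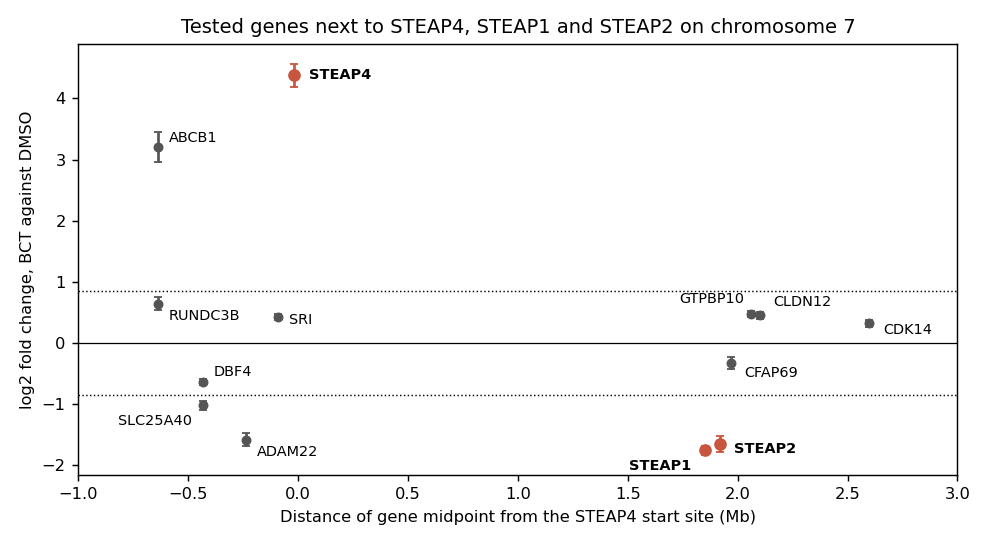
Log2 fold change (BCT against DMSO, with bars for the standard error) of STEAP4, STEAP1, STEAP2 and the tested genes within 500 kb of them, by distance from the STEAP4 start site in Mb. ABCB1 at 3.20 is the tested neighbour above the dotted line at 0.85, and ADAM22 and SLC25A40 lie below the line at -0.85. ABCB1 is placed by the midpoint of the span it shares with RUNDC3B, and SLC25A40 by that of the span it shares with DBF4.

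The genes whose profile was most like each member were found by the RMS difference between log2 profiles over the 6 samples, each centred on its own mean. For STEAP4 they were FOS (0.115), DUSP4 (0.144), EGR1 (0.164), MMP10 (0.168) and EGR2 (0.222). FOS, EGR1 and EGR2 encode immediate-early transcription factors, DUSP4 a MAP kinase phosphatase and MMP10 a matrix metalloproteinase. FOS was at 3.32, 3.71 and 3.26 FPKM in DMSO and 55.3, 94.4 and 69.2 FPKM in BCT, with its lowest BCT value in replicate 1 and its highest in replicate 2, the same order as STEAP4. DUSP4, EGR1, MMP10 and EGR2 had that order too. So had the RMS difference of BCT replicates 1, 2 and 3 from the DMSO mean over all tested genes (0.931, 1.12 and 1.11). The order was therefore not particular to FOS and STEAP4.

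STEAP1 and STEAP2 were the closest pair among the tested members, though each had other genes nearer still. LAPTM4B (0.0381), DANCR (0.0386) and CARHSP1 (0.0401) were nearest to STEAP1, and SHANK3 (0.0368), LINC01003 (0.0514) and TMEM64 (0.0514) to STEAP2. The distance between STEAP1 and STEAP2 was 0.116, which placed STEAP2 at 182 in the order for STEAP1, with 12729 genes tested. STEAP3 was at 0.762 from STEAP1 and 0.791 from STEAP2. C1orf233 (0.110), IMPA2 (0.117) and FADS2 (0.136), the last a fatty acid desaturase, were nearest to STEAP3. With 2 groups of 3 samples, these distances mostly reflect the size of the change between groups.

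Genes that handle iron were listed because STEAP reductases supply ferrous iron to transporters. Of 33 listed, 24 were tested, 2 were higher, 7 were lower and 15 were not called, with a median log2 fold change of -0.51 against -0.04 over all tested genes. Counts in this and the following lists are descriptions. They stand beside 31.6% of all tested genes called, 13.9% higher and 17.8% lower. HMOX1, the heme oxygenase that frees iron from heme, rose from 2.21 ± 0.290 to 9.04 ± 2.94 FPKM (log2 fold change 1.95, limma, adjusted p = 3.3e-05). FBXL5, an iron-sensing ubiquitin ligase subunit, rose from 12.7 to 23.8 FPKM (log2 fold change 0.90, limma, adjusted p = 3.0e-06). The ferritin light chain FTL fell from 666.7 ± 51.7 to 171.5 ± 24.0 FPKM (log2 fold change -1.96, limma, adjusted p = 1.1e-06).

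TFRC and SLC40A1, for iron uptake and export, were both called lower. TFRC, the transferrin receptor that works with STEAP3 in the endosome, fell from 89.4 ± 5.09 to 34.6 ± 1.76 FPKM (log2 fold change -1.37, limma, adjusted p = 6.9e-07). SLC40A1, the iron exporter ferroportin, fell by 1.64 on the log2 scale (limma, adjusted p = 1.0e-06). The ferrous iron transporter SLC11A2 (DMT1) was at 51.9 FPKM in DMSO and 49.2 FPKM in BCT and was not called, and neither was the ferritin heavy chain FTH1 at a log2 fold change of -0.82. Other ferrireductases are the cytochrome b561 proteins, of which 5 of 7 listed genes were tested. CYB561A3, a lysosomal ferrireductase, fell from 30.9 to 12.2 FPKM (log2 fold change -1.34, limma, adjusted p = 2.1e-06), the other 4 were not called, and CYBRD1 (duodenal cytochrome b) was near 0 at 0.0203 FPKM in DMSO and 0.0177 FPKM in BCT. The list's median was -0.42.

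Of 17 copper genes 16 were tested, 1 was higher and 5 were lower, with a median of -0.34 (all tested genes: 13.9% higher, 17.8% lower). COX19, a copper-binding assembly factor of cytochrome c oxidase, rose from 7.67 to 14.7 FPKM (log2 fold change 0.93, limma, adjusted p = 4.9e-06). The copper transporters SLC31A1 (CTR1) and SLC31A2 (CTR2) fell, with log2 fold changes of -0.98 and -1.09 (limma, adjusted p = 3.6e-06 and 6.0e-06), and CUTA fell by 1.16 (limma, adjusted p = 1.2e-06). The copper-exporting ATPases ATP7A and ATP7B had log2 fold changes of 0.54 and -0.50 and were not called.

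Electrons for the reductases come from NADPH. Of the 20 genes for NADPH and flavin supply 19 were tested, 5 were lower and 14 were not called, with a median of -0.53. The share called lower over all tested genes was 17.8%. IDH2 fell from 51.7 to 13.6 FPKM (log2 fold change -1.93, limma, adjusted p = 9.1e-07) and IDH1 from 263.7 to 85.7 FPKM (log2 fold change -1.63, limma, adjusted p = 1.6e-06), both NADP-dependent isocitrate dehydrogenases. The NADPH oxidase family, whose catalytic members have a heme and flavin core that resembles that of the STEAPs, had 2 of 13 genes tested. These were NOXA1 and NOXO1, neither called, with a median of -0.02. The catalytic genes NOX1, CYBB, NOX3, NOX4, NOX5, DUOX1 and DUOX2 were under the filter, so the median does not cover them.

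STEAP4 is also numbered among the TNF-induced (TNFAIP) genes. Of 8 others listed 4 were tested, 2 were lower and 2 were not called, with a median of -0.54 (all tested genes: 17.8% lower). TNFAIP8L1 was at 4.22 FPKM in DMSO and 0.937 FPKM in BCT (log2 fold change -2.09) and passed the filter only through DMSO, so no p is given. TNFAIP8 lay at the threshold, with a log2 fold change of -0.85 (limma, adjusted p = 2.7e-05), and lost its call in 7 of 18 alternatives. TNFAIP3, the NF-kB feedback inhibitor A20, was under the filter at 0.225 FPKM in DMSO and 1.49 FPKM in BCT.

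Among the cytokine receptors and transcription factors linked to STEAP4 in other tissues, 19 of 26 were tested, 7 were higher and 1 was lower, with a median of 0.72. For all tested genes the shares were 13.9% higher and 17.8% lower. IL6R, the interleukin-6 receptor, rose from 1.86 to 14.9 FPKM (log2 fold change 2.93, limma, adjusted p = 3.3e-07). The cytokine LIF was at 0.618 FPKM in DMSO and 4.68 FPKM in BCT (log2 fold change 2.73). LIF and JAK1, which are among the 7, passed the filter only through BCT, where they were high, so their calls are no independent evidence and no p is given. IL1R1 fell by 1.96 on the log2 scale (limma, adjusted p = 3.3e-06). STAT3 and CEBPB, whose protein families bind the letters found in the STEAP4 promoter, had log2 fold changes of 0.54 and 0.40. They were not called on the deposited scale. The other genes called higher, named after their values were seen, were JAK1 (2.60), CEBPD (1.60), FOXO1 (1.35), RELA (1.11) and NFKB1 (1.10). CEBPD, a further C/EBP factor, was at 22.0, 23.6 and 21.2 FPKM in DMSO and 59.9, 73.7 and 71.0 FPKM in BCT. The other listed C/EBP genes, CEBPA and CEBPG, had log2 fold changes of 0.72 and 0.78 and, like CEBPB, were not called. The cytokine genes TNF and IL6 were under the filter, with TNF at 0.137 FPKM and IL6 at 0.0513 FPKM in BCT.

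STEAP1 is grouped with surface antigens of prostate cancer, of which 11 of 16 were tested, 2 were higher and 6 were lower, with a median of -0.91. Among all tested genes 13.9% were higher and 17.8% lower. SLC45A3 (prostein) fell from 13.6 to 2.63 FPKM (log2 fold change -2.35, limma, adjusted p = 1.0e-05) and CD276 (B7-H3) from 23.4 to 5.20 FPKM (log2 fold change -2.17, limma, adjusted p = 3.0e-06). The receptor tyrosine kinases MET and ERBB2 rose by 1.32 and 0.97 on the log2 scale (limma, adjusted p = 1.0e-05 and 8.1e-06). FOLH1, which encodes PSMA, was at 33.0 FPKM in DMSO and 43.1 FPKM in BCT and was not called.

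The prostate epithelial markers were split. Of 15 tested, 2 were higher, 6 were lower and 7 were not called, with a median of -0.45 (all tested genes: 13.9% higher, 17.8% lower). KLK4 and KLK3, kallikrein proteases of prostate secretion, were called lower by limma with log2 fold changes of -3.91 and -2.95, and the keratins KRT18 and KRT8 were called higher at 1.72 and 1.17.

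Rescaling all samples to equal FPKM sums moved the median of all tested genes to 0.72 and turned the split of calls from 56.2% lower to 10.6% lower. Read on that scale, STEAP1 was at -0.99, STEAP2 at -0.89, STEAP3 at -2.54 and STEAP4 at 5.06, each in the same direction and still called. The list medians became 0.25 for iron, 0.43 for copper, 0.34 for the b561 reductases, 0.23 for NADPH supply, 0.19 for the TNFAIP genes, 0.73 for the NADPH oxidase family and 0.32 for the prostate epithelial markers, so the direction of those medians rests on the scale. The median of the prostate surface antigens became -0.14 and that of the cytokine and C/EBP regulators 1.47. Without MIR6087 in the sums, medians were -0.13 for iron, 0.046 for copper, -0.039 for the b561 reductases and -0.15 for NADPH supply. They were -0.17 for the TNFAIP genes, 0.36 for the NADPH oxidase family and -0.064 for the epithelial markers, beside 0.34 for all tested genes. Apart from the NADPH oxidase family, these lists lay below the median of all tested genes on each of these scales. Counts under equal FPKM sums turned as well: 4 iron genes were higher and 2 lower, and 5 copper genes were higher and the other 11 not called. Of the NADPH supply genes 5 were higher and 2 lower, and of the surface antigens 4 were higher and 3 lower. The cytokine and C/EBP regulators had 14 higher and 1 lower. The calls of TFRC (-0.60), CYB561A3 (-0.58), CUTA (-0.39), SLC31A1 (-0.22), SLC31A2 (-0.33), TNFAIP8 (-0.11), ADAM22 (-0.83) and SLC25A40 (-0.26) were lost under equal FPKM sums. Among the named genes of the lists, STAT3 (1.31), ATP7A (1.28), CEBPB (1.17) and FOLH1 (1.15) gained a call as higher there. STAT3 (0.93) and ATP7A (0.92) were also called higher under equal sums without MIR6087. FBXL5 lost its call, at 0.78, under a correction for GC content and length.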

How the data were processed

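RNA-seq was measured in 22RV1 cells, 3 DMSO and 3 BCT samples. The submitters' processing notes name CASAVA, Trimmomatic 0.38, HISAT2 and HTSeq with build hg19, and the methods name StringTie for quantification. The authors deposited gene-level FPKM, scaled by transcript length and mapped fragments, and no counts were used here. No gene-level test was named, and thresholds were taken from the text (0.85 and 0.05), with the 0.01 of the methods as an alternative.

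From the deposited FPKM, log2(FPKM + 0.1) was fitted with limma 3.58.1 (R 4.3.3, eBayes with trend, treatment as the only term) over genes averaging 1 FPKM or more, with Benjamini-Hochberg adjustment over all 12729. On simulated data 191 of 200 genes changed by 1.5 log2 units were recovered, with 1 false call among 12529. The simulation changed a smaller share of genes than was called here and held no difference in scale between groups. Its false calls therefore do not measure those of this contrast. Samples were grouped by their labels. The members and all 10 gene lists were chosen with earlier results of these data known. Text names the members, the 2 largest called rises and falls per list, a fixed set of transport and regulator genes, the nearest profiles (5 for STEAP4, 3 for others) and tested genes within 500 kb. Some items are not reported here. Annotation was GENCODE 44 on GRCh37, and promoters were RefSeq's. Relative depth came from values of 0.02 to 0.15 FPKM. Alternatives covered the pseudocount, filter, scaling, variance model, adjusted p, replicate block and each left-out sample, and 1 correction for GC content and length was chosen after seeing the data.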

Additional observations from a re-analysis of the deposited data

How the results depend on the processing

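STEAP1, STEAP2 and STEAP4 kept their direction and their call in all 19 alternatives and STEAP3 in all 18 that gave it a value (none at a minimum of 5 FPKM), but sizes moved. Rescaling to equal FPKM sums gave -0.99 for STEAP1, -0.89 for STEAP2, -2.54 for STEAP3, 5.06 for STEAP4 and a family sum in BCT of 67.2% of DMSO, with 6282 genes called (668 lower, 5614 higher), 10 neighbours called and the STEAP2, STEAP3 and STEAP4 sum at 104.3% of DMSO. Equal sums without MIR6087 gave -1.37 for STEAP1, -1.27 for STEAP2, 4.72 for STEAP4, 51.8% for the family sum and 80.5% for the STEAP2, STEAP3 and STEAP4 sum, with 1208 genes lower, 3370 higher, 26.4% of calls lower and a median of all genes of 0.34. A pseudocount of 0.01 gave 4.67 for STEAP4, and a pseudocount of 1 gave 2.97 for STEAP4 and -1.78 for STEAP3. The GC and length correction, fitted to the 91.8% of tested genes with both values, gave -1.95 for STEAP2 and 4.03 for STEAP4. A minimum of 5 FPKM left 1150 genes higher, and no filter gave 2725 lower and 2569 higher. Leaving out each sample in turn gave -1.83 to -1.71 for STEAP1, -1.79 to -1.51 for STEAP2, -3.48 to -3.00 for STEAP3, 4.24 to 4.56 for STEAP4, 38.5 to 40.6% for the family sum and 3822 to 4428 calls.

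The replicate numbers were not shown to pair the samples: deviations of same-numbered samples correlated at 0.12, 0.033 and 0.034. With the replicate block 4033 genes were called and 6 calls differed.

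Of 973 values of named genes under alternatives, 925 kept direction and call, 19 lost the call, 20 gained it and 9 reversed. Under equal sums ATP7B was at 0.22, CDCA7L at 0.23, CFAP69 at 0.42, DBF4 at 0.13, SLC11A2 at 0.69 and TOMM7 at 0.21. Without MIR6087 CFAP69 was at 0.051 and SLC11A2 at 0.31, and quantile normalization put SLC11A2 at 0.031. Of 380 list counts, 33 moved by over 1.5 times. Without MIR6087, 4 copper genes were higher and the other 12 not called, and 3 iron genes higher and 4 lower. Without counts, depth limits low members such as STEAP1B most, by an unknown number of reads.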
